A study of Mus musculus with 4 samples.

Results

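The genes described here encode the secreted ligands of the FGF, WNT, BMP, GDF and TGFb families in the mouse. They were chosen by symbol alone, as protein-coding genes of the GENCODE mm10 annotation named Fgf, Wnt, Bmp or Gdf with a number, together with Tgfb1, Tgfb2 and Tgfb3. This gave 65 of 21755 protein-coding genes, namely 22 Fgf, 19 Wnt, 11 Bmp, 10 Gdf and 3 Tgfb genes. Open chromatin had been measured by ATAC-seq, in which the Tn5 transposase cuts accessible DNA, on nuclei sorted from the hearts of male C57BL/6 mice aged 8 to 12 weeks. All animals carried both the NuTRAP allele, which tags nuclei and ribosomes after Cre recombination, and Cdh5-Cre, which acts in endothelial cells (ECs) through the promoter of the VE-cadherin gene. GFP+ (endothelial) and GFP- (non-endothelial) nuclei with 2n DNA content were sorted, and 100 to 50000 nuclei per reaction received 2.5 µL of enzyme per 50000 nuclei. Cdh5-Cre marks every cell of Cdh5-expressing descent, and the GFP- fraction is a mixture of all other heart nuclei. Each population had 2 libraries from which 1 peak list was called, so the values below have no replicate error and no test, and all comparisons are between 2 lists.

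FGFs bind receptor tyrosine kinases of the FGFR family together with heparan sulfate. WNT proteins are lipid-modified in the secreting cell by Porcn, carried out by Wls and bound by Frizzled receptors with Lrp5, Lrp6, Ror or Ryk as co-receptors. BMPs, GDFs and TGFbs are dimers that bring type I and type II serine-threonine kinase receptors together and act through SMAD proteins, with TGFbs held latent by LTBP proteins. In the heart these ligands are known for paracrine traffic between endothelium, myocytes, fibroblasts and epicardium during development and repair. Several genes carry a family name for other reasons: Bmp1 encodes a procollagen-cleaving metalloproteinase, and Fgf11, Fgf12, Fgf13 and Fgf14 encode proteins that stay in the cell and bind voltage-gated sodium channels.

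The GFP- list held 78912 peaks over 52.1 Mb and the GFP+ list 65008 peaks over 41.8 Mb. Each peak was given its rank by area in its own list, from 0 for the smallest to 100 for the largest, where area is the caller's significance curve summed along the peak, so that a long peak can rank above a short, taller one. Of the endothelial markers, 10 of 10 had a promoter peak in the GFP+ list and 7 in the GFP- list, Sox17, Pecam1 and Erg having none there, and Tek was the only one of the 10 ranked lower in GFP+ nuclei. Fibroblast markers had promoter peaks for 6 of 8 genes in the GFP- list and 2 in the GFP+ list, with no GFP+ peak at Tcf21, Dcn, Dpt and Col1a2 and no peak in either list at Postn and Lum, and markers of pericytes and smooth muscle for 7 of 7 and 3, with none in GFP+ at Pdgfrb, Notch3, Rgs5 and Acta2. Cardiomyocyte markers had promoter peaks for 8 of 8 genes in both lists, at median ranks of 98.3 in GFP- and 92.7 in GFP+. Of 6 macrophage, 5 lymphocyte and 4 Schwann cell markers, 1 each had a promoter peak, in both lists, and of 4 epicardial markers Wt1 and Tbx18 had one in both.

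Of the 65 ligand genes, 36 had a promoter peak in the GFP- list, a peak within 250 bp of any annotated transcript start (TSS), against 61.8% of all protein-coding genes. In the GFP+ list 34 did, against 59.8% of all genes. The lists shared 33 of them. Fgf7, Fgf10 and Gdf10 had a promoter peak only in GFP- nuclei, 3 of 65 where 2.95% of all genes did, and Fgf6 had one only in GFP+ nuclei, 1 of 65 where 0.915% of all genes did. The remaining 28 had none in either list. A missing peak says that no area reached the caller's minimum, 200 in its own units, and not that the site was closed, and in sorted bulk nuclei fewer cells of a type and a weaker signal per cell cannot be told apart.

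Ligand promoters were, as a group, ranked lower in GFP+ than in GFP- nuclei. Among the 37 genes with a promoter peak in either list, 30 ranked lower in GFP+ (81.1%) and 7 higher, where 71.4% of all such genes were lower and 28.6% higher. The rank was set to 0 where a list had no peak. The median difference, GFP+ minus GFP-, was -16.1 points (95% order-statistic interval -19.6 to -3.94, which covers the spread between genes only), beside -0.81 for all 13643 such genes. By more than 20 points, 11 of the 37 were lower in GFP+ (29.7%), where 7.33% of all such genes were, and 1 was higher, where 1.94% were. The 11 were Gdf6, Gdf10, Wnt5a, Gdf15, Wnt10b, Wnt2b, Wnt11, Wnt6, Fgf16, Gdf11 and Bmp8a. Bmp8a at -20.2 lay just past that limit and Tgfb2 at -19.8 just short of it, so the count of 11 rests on small steps there. At a limit of 10 points, 21 ligand genes were lower, where 12.1% of all such genes were, and 2 higher, where 3.49% were.

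**Figure D1:**
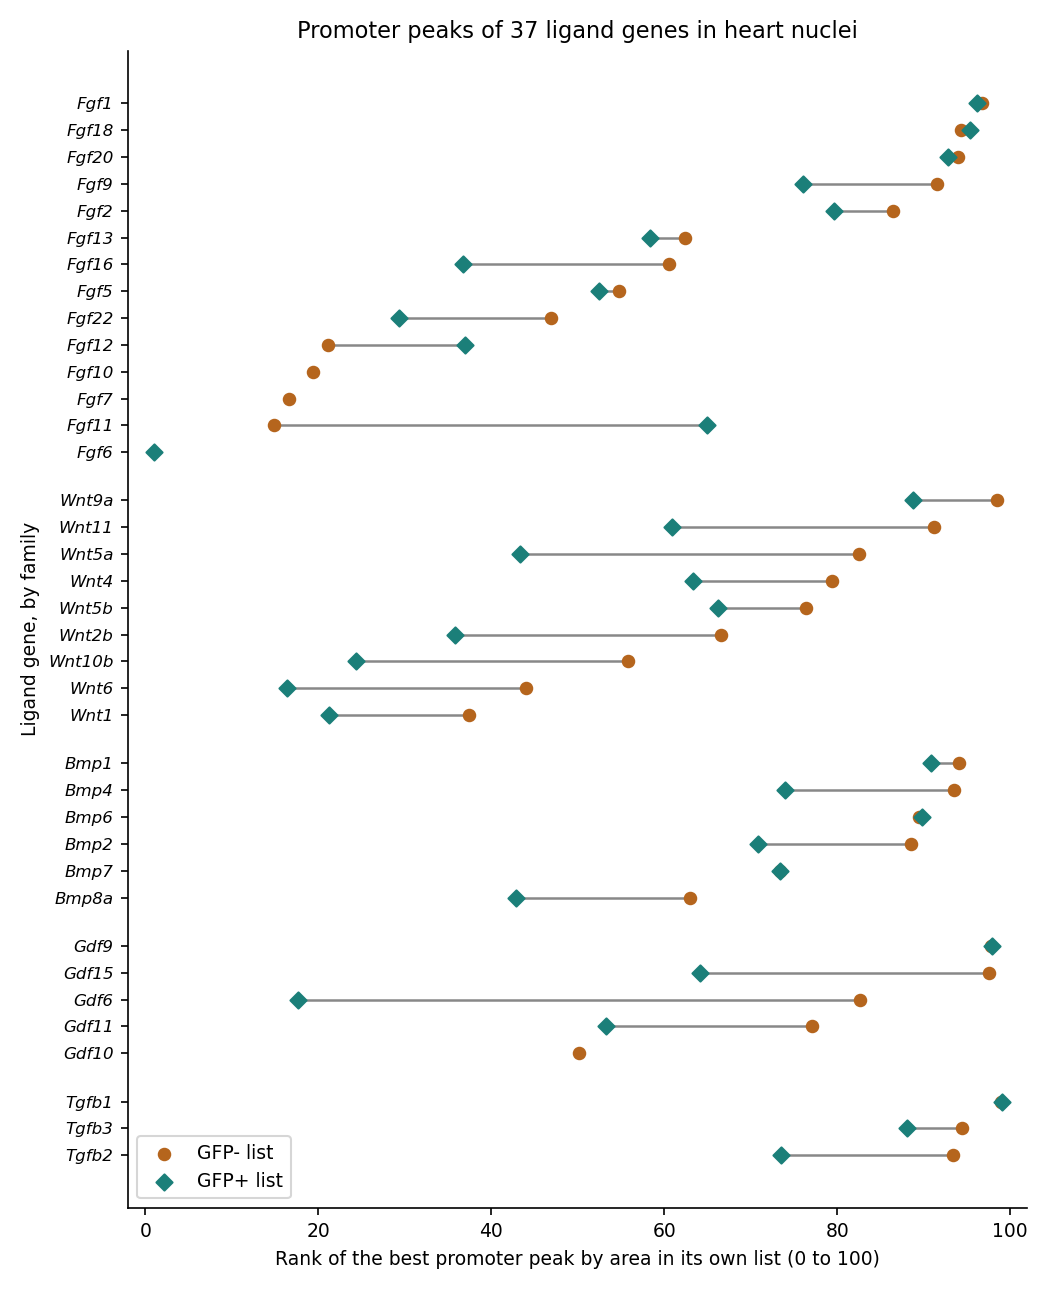
Rank by area (x axis, 0 to 100 within the peak list) of the best promoter peak of the 37 ligand genes with one in either list, with circles for GFP- and diamonds for GFP+ nuclei, and a line joining the values of a gene. The 9 Wnt genes all have the GFP+ diamond to the left, Tgfb1 and Gdf9 lie at the right edge in both lists, and Fgf11 is the gene with the longest line running to the right.

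The same genes were set beside genes of like strength, since ranks near the top of a list have little room to move and ligand promoters were weaker than most. With a peak in both lists, their median rank was 82.6 in GFP- and 65.0 in GFP+ nuclei, against 91.1 and 89.5 for all genes. Between mean ranks of 40 and 60 over both lists, 5 of 6 ligand genes were lower in GFP+ by more than 20 points, against 36.9% of all genes in that range. From 60 to 80, 3 of 8 ligand genes were, against 9.38%, and from 80 to 90, 1 of 6, against 0.736%. Below 40 the order was the opposite, with 2 of 9 ligand genes (22.2%) against 43.5% of all genes, and above 90 no gene of either set, 8 ligand genes and 6465 in all, differed by that much. The excess over all genes thus lay between mean ranks of 40 and 90, in 3 groups of 6 to 8 ligand genes.

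**Figure D2:**
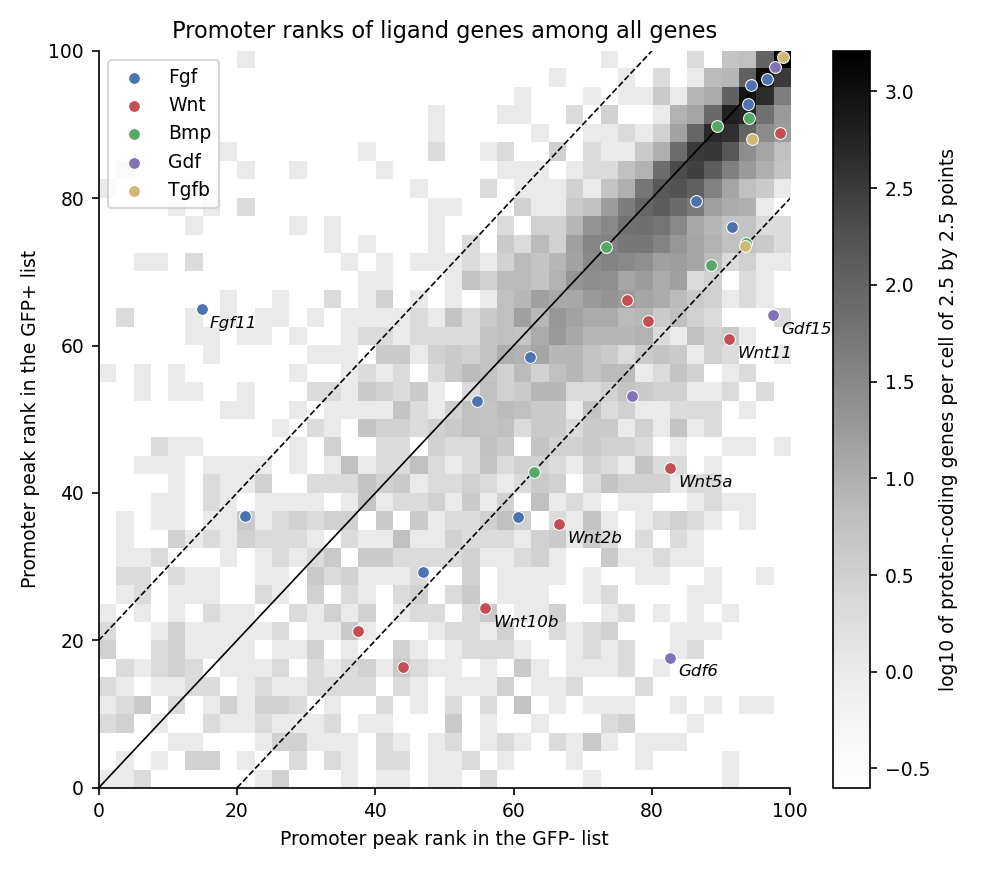
Promoter peak rank in the GFP- list (x axis) and GFP+ list (y axis) of the 33 ligand genes with a promoter peak in both, coloured by family, over the log10 number of protein-coding genes per cell of the grid in grey. The solid line marks equal ranks and the dashed lines a difference of 20 points, below which Gdf6, Wnt5a, Gdf15, Wnt10b, Wnt2b and Wnt11 are named.

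WNT promoters ranked lower in GFP+ nuclei throughout. All 9 Wnt genes with a promoter peak had one in both lists and ranked lower in GFP+ nuclei, by a median difference of -27.6 points, and 5 of the 9 by more than 20. Those shares stand beside 71.4% and 7.33% of all genes with a promoter peak. The 5 genes had mean ranks below 80 over both lists, where more of all genes differed that far. Lower in GFP+ by over 20 points were 43.5% of all genes below 40, 36.9% from 40 to 60 and 9.38% from 60 to 80. Wnt5a, a ligand known for signalling without beta-catenin, ranked 82.6 in GFP- and 43.4 in GFP+ nuclei. Its best peaks lay at different starts of the gene and did not overlap. Wnt11, which also acts largely without beta-catenin and is known from heart development, ranked 91.2 in GFP- and 60.9 in GFP+, with a peak of 2976 bp in the first and 847 bp in the second. The falls of Wnt5a and Wnt11 stayed past 20 points under each of the 7 other settings tried for promoters, between -57.6 and -30.1 for Wnt5a and between -46.1 and -27.5 for Wnt11.

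Wnt2b ranked 66.5 in GFP- and 35.8 in GFP+, Wnt10b 55.8 and 24.4, and Wnt6 44.0 and 16.4. All 3 values moved with the settings. The difference at Wnt10b shrank from -31.5 to -3.80 points when only the 5′ end of the gene record was used, that at Wnt2b to -13.0 when peaks were ranked by summit p-value, and that at Wnt6 turned to 7.84 when area was divided by peak length. Wnt1, the neighbour of Wnt10b 11707 bp away on chromosome 15, ranked 37.5 and 21.2. Wnt9a had the highest Wnt promoter in both lists, 98.5 in GFP- and 88.8 in GFP+. Wnt4 ranked 79.4 and 63.3, and Wnt5b 76.4 and 66.2. The other 10 Wnt genes had no promoter peak in either list.

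The GDF family held the largest single difference. Gdf6, a ligand of joint and skeletal patterning, had a promoter peak of 2023 bp at rank 82.6 in GFP- nuclei and one of 541 bp at rank 17.7 in GFP+ nuclei, a difference of -65.0 points that remained between -71.1 and -26.3 under the other 7 settings. Gdf10, also known as BMP3b, had a GFP- promoter peak of 706 bp, at rank 50.1, where the GFP+ list had no peak. That difference was below 20 points with only the 40000 largest peaks of each list (-1.56) and by area per bp (-18.9). Both promoters were rich in C and G, and are shown as the 200 bases upstream of the start under the GFP- peak, in mm10 and on the plus strand. Gdf10 lies at chr14:33923387-33923586 (28 CpG, 79% of bases G or C) and Gdf6 at chr4:9844172-9844371 (12 CpG, 71.5%). Neither held any of the 7 words searched for distal peaks further on, so that all letters are in lower case.
Gdf10 promoter: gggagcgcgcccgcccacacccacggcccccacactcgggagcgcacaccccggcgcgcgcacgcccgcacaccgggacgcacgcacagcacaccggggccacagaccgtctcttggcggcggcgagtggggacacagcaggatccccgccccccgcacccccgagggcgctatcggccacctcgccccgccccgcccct
Gdf6 promoter: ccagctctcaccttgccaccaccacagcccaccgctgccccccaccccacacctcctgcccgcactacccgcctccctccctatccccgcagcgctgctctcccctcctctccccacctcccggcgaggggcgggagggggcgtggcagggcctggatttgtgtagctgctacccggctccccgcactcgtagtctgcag

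Gdf15, a stress-induced ligand, ranked 97.6 in GFP- and 64.1 in GFP+ nuclei. The GFP- peak ran over 2763 bp, and another GFP+ peak under it, outside the promoter window, ranked 91.1. The GFP+ promoter peak lay over 100 bp from the start, so that Gdf15 had a promoter peak only in GFP- nuclei within that distance (-97.6), while by area per bp the difference was -12.8. Gdf11 ranked 77.1 and 53.2. Gdf9, an oocyte ligand, ranked 97.8 and 97.9, but its peak also covered the start of Uqcrq, which encodes a subunit of respiratory complex III. Of the other Gdf genes, Gdf1, Gdf2, Gdf3, Gdf5 and Gdf7 had no promoter peak.

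BMP promoters split between genes with equal ranks and genes lower in GFP+. Bmp6, a regulator of iron homeostasis, ranked 89.5 in GFP- and 89.8 in GFP+, and Bmp7 73.4 and 73.3. By area per bp Bmp7 was 22.7 points higher in GFP+, where its peak of 768 bp was shorter than the 1115 bp in GFP-. Bmp2 and Bmp4, closely related ligands of heart valve and mesoderm formation, ranked 88.6 and 93.5 in GFP- against 70.9 and 74.0 in GFP+. Bmp8a ranked 63.0 and 42.8. The metalloproteinase gene Bmp1 ranked 94.0 and 90.9. Bmp3, Bmp5, Bmp8b, Bmp10 and Bmp15 had no promoter peak.

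All 3 Tgfb genes had promoter peaks in both lists. Tgfb1 had the highest promoter rank of any ligand gene, 99.0 in GFP- and 99.1 in GFP+, in peaks of 4123 and 4137 bp. Tgfb3 ranked 94.5 and 88.0. Tgfb2 was the member that differed, at 93.4 in GFP- and 73.6 in GFP+, with a peak of 2681 bp in the first and 1164 bp in the second.

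Of the family medians, that of the FGF promoters was the closest to 0, at -3.09 points over 14 genes. Fgf1 (acidic FGF) ranked 96.7 in GFP- and 96.2 in GFP+, Fgf18 94.3 and 95.4, and Fgf20 93.9 and 92.8. The Fgf20 peak also covered the start of Micu3, a regulator of mitochondrial calcium uptake. Fgf2 (basic FGF) ranked 86.4 and 79.7, and Fgf5 54.7 and 52.5. Fgf9 ranked 91.6 and 76.0, although its best peaks lay at different starts and the other list ranked 81.6 and 85.8 under them. Fgf22 ranked 47.0 and 29.3. Fgf16, which together with Fgf9 and Fgf20 forms a subfamily and is known from heart muscle, ranked 60.6 and 36.7. Its difference shrank from -23.9 to -2.46 by area per bp.

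Fgf7 and Fgf10, mesenchymal ligands of epithelial FGFR2, had promoter peaks in GFP- nuclei alone, at ranks 16.6 and 19.3 by area. The Fgf10 peak lay at a start inside the gene and not at its 5′ end. With a window of 100 bp, or with only the gene record's 5′ end, Fgf10 had no promoter peak in either list. By summit p-value the difference was -28.9 for Fgf7 and -9.36 for Fgf10, and by area per bp -44.4 and -1.71. Fgf6, the ligand of skeletal muscle precursors, had a GFP+ peak at rank 1.0, at the bottom of its list. None of the endocrine genes Fgf15, Fgf21 and Fgf23 had a promoter peak. Of the intracellular factors, Fgf13 ranked 62.4 and 58.4, Fgf14 had no promoter peak, and Fgf12 ranked 21.2 and 36.9 at different starts. The Fgf12 difference of 15.8 turned to -21.2 when only the gene record's 5′ end was used, to -10.8 by summit p-value and to -15.5 by area per bp. Fgf11 was the ligand gene with the largest rise, from 14.9 in GFP- to 65.0 in GFP+ nuclei. The GFP+ promoter peak was 1414 bp long, the GFP- one 354 bp, and a GFP- peak of 2481 bp at rank 94.9 began outside the window, where a GFP+ peak ranked 93.0. With a window of 500 bp the Fgf11 difference was -29.9, and by area per bp -0.62. It was 22.4 by summit p-value, 43.1 with the 40000 largest peaks and 50.1 under the other 3 settings.

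Markers of cell types differed from one another in direction. Fibroblast markers had a median difference of -58.8 points over 6 genes and those of pericytes and smooth muscle -27.7 over 7. These medians count a missing peak as rank 0. With a peak in both lists they were -12.2 over 2 genes and -13.4 over 3. Cardiomyocyte markers had -2.91 over 8 genes, epicardial markers 2.85 over 2 and endothelial markers 48.5 over 10. Single macrophage, lymphocyte and Schwann cell markers had -15.0, -8.27 and -1.36. The part of these cell types in the ligand values was not tested.

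Most of the 28 ligand genes without a promoter peak had a peak within 10 kb of a start. The nearest peak edge lay a median of 3671 bp from a start in GFP- and 4046 bp in GFP+ nuclei, beside 30599 and 36187 bp for all 8112 genes without a promoter peak. It lay within 1000 bp for 6 ligand genes (21.4%) and beyond 10 kb for 8 (28.6%) in each list. Of all such genes, 4.89% in GFP- and 4.02% in GFP+ were within 1000 bp, and 69.9% and 73.2% beyond 10 kb. Wnt2 had a peak 997 bp away at rank 63.7 in GFP- and one 733 bp away at rank 75.5 in GFP+. Bmp10, an atrial ligand of the endothelial receptor ALK1, had a peak about 4 kb away in both lists (4445 and 4252 bp), at rank 6.4 in GFP- and 44.1 in GFP+. The starts of Bmp5 were 30194 and 82134 bp from the nearest peak. Neighbouring ligand genes did not always share their state, since Wnt6 and Wnt9a had promoter peaks in both lists while Wnt10a and Wnt3a, 19624 and 16176 bp from them, had none. Gdf2, the circulating ALK1 ligand BMP9, lies 17452 bp from Gdf10 and had none in either list. The linked genes Fgf3, Fgf4 and Fgf15 had none at all.

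CpG content was higher at the starts used for ligand genes with a promoter peak than for those without. For genes with a promoter peak, the start used was that at their best peak, in the GFP- list where both lists had one. For ligand genes without, it was the 5′ end of the gene record. The peak thus picked the start in the first group, at times inside the gene, so the groups were not measured alike. The CpG observed over expected ratio, taken over 250 bp on either side of the start, exceeded 0.6 at 27 of 37 ligand genes with a promoter peak (73.0%) and at 10 of 28 without (35.7%), with medians of 0.777 and 0.408. Over all protein-coding genes the shares were 79.1% and 11.3%. Ligand genes without a peak thus included a set with CpG-rich starts: Fgf3, Fgf8, Fgf15, Wnt2, Wnt3, Wnt3a, Wnt7a, Wnt9b, Gdf7 and Bmp8b. In the other direction, Fgf1, Fgf2 and Gdf15 had promoter peaks in both lists at ratios of 0.201, 0.245 and 0.208. The Fgf2 and Gdf15 ratios were taken at starts inside the gene, and the ratio at the 5′ end of those genes was not measured.

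**Figure D3:**
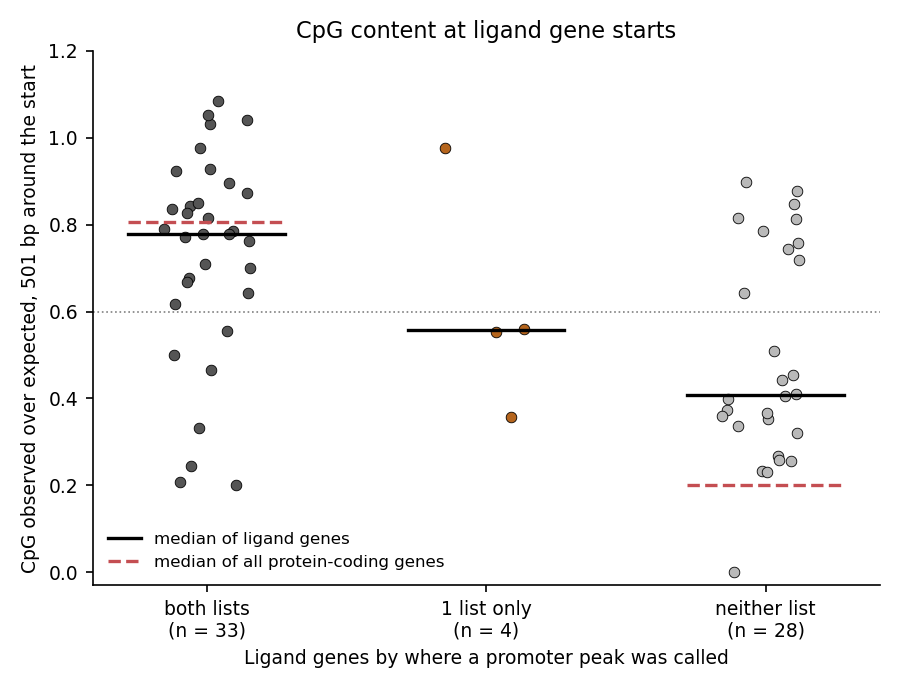
CpG observed over expected ratio around the start (y axis) of each of the 65 ligand genes, 1 point a gene, by where a promoter peak was called, with the ligand median as a solid line, the median of all protein-coding genes as a dashed line and 0.6 as a dotted line. Starts with a peak in both lists centre on 0.779 and those with none on 0.408, with 10 of the latter above 0.6. The start was that at the best promoter peak, or the 5′ end of the gene record where a ligand gene had none.

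Away from promoters, ligand genes had more distal peaks in GFP- nuclei, and more of those were without a GFP+ counterpart. A peak was called distal where its summit lay over 1000 bp from any annotated TSS and outside exons, and was assigned to the protein-coding gene with the nearest start. The GFP- list held 305 such peaks and the GFP+ list 198. Nearness is not evidence of regulation, and with noncoding genes also allowed as the nearest gene, 152 and 106 remained. At least 1 distal peak was assigned to 55 ligand genes in GFP- (84.6%) and 52 in GFP+ (80%), against 53.3% and 49.6% of all protein-coding genes. Of the GFP- distal peaks, 173 shared 1 bp or more with a GFP+ peak (56.7%, Wilson interval 51.1 to 62.2%, counting error only), where 64.0% of all 56075 GFP- distal peaks did. Of the GFP+ distal peaks, 174 overlapped a GFP- peak (87.9%, 82.6 to 91.7%), where 83.6% of all 43861 did. That left 132 GFP- and 24 GFP+ peaks without an overlap.

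The shared fraction of GFP- distal peaks was highest for Fgf and lowest for Gdf genes. It was 69.9% for Fgf (60.9 to 77.6%), 59.7% for Wnt, 48.6% for Tgfb, 43.8% for Bmp (30.7 to 57.7%) and 35.1% for Gdf genes (21.8 to 51.2%). The intervals treat peaks as independent, although few genes gave most peaks in some families. Tgfb2 held 31 of 35 Tgfb peaks, 16 of them shared. Of 37 Gdf peaks, Gdf6 held 19, with 8 shared, and Gdf10 11, with 2 shared. In the GFP+ list the peaks without overlap were 12 of 90 at Fgf genes, 6 of 27 at Bmp, 4 of 48 at Wnt, 2 of 16 at Gdf and 0 of 17 at Tgfb genes. Where a distal peak was shared, the median rank difference seen from the GFP- list was -4.86 points, beside -2.6 over all genes, with 28 of 173 lower in GFP+ by over 20 points (16.2%, beside 14.0% over all genes) and 7 higher (4.05%, beside 7.27%). More distal peaks were assigned in GFP- than in GFP+ nuclei for 32 ligand genes and as many, above 0, for 19, while 8 had none in either list. Bmp3, Fgf12, Fgf16, Fgf20, Wnt2 and Wnt9b had more in GFP+. These counts were not made over all genes, where GFP- also held more. The mean was 2.58 distal peaks a gene in GFP- and 2.02 in GFP+ over all genes, and 4.69 and 3.05 over ligand genes. Fgf15, Fgf21, Gdf1, Gdf3 and Gdf5 had neither a promoter nor a distal peak in either list.

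**Figure D4:**
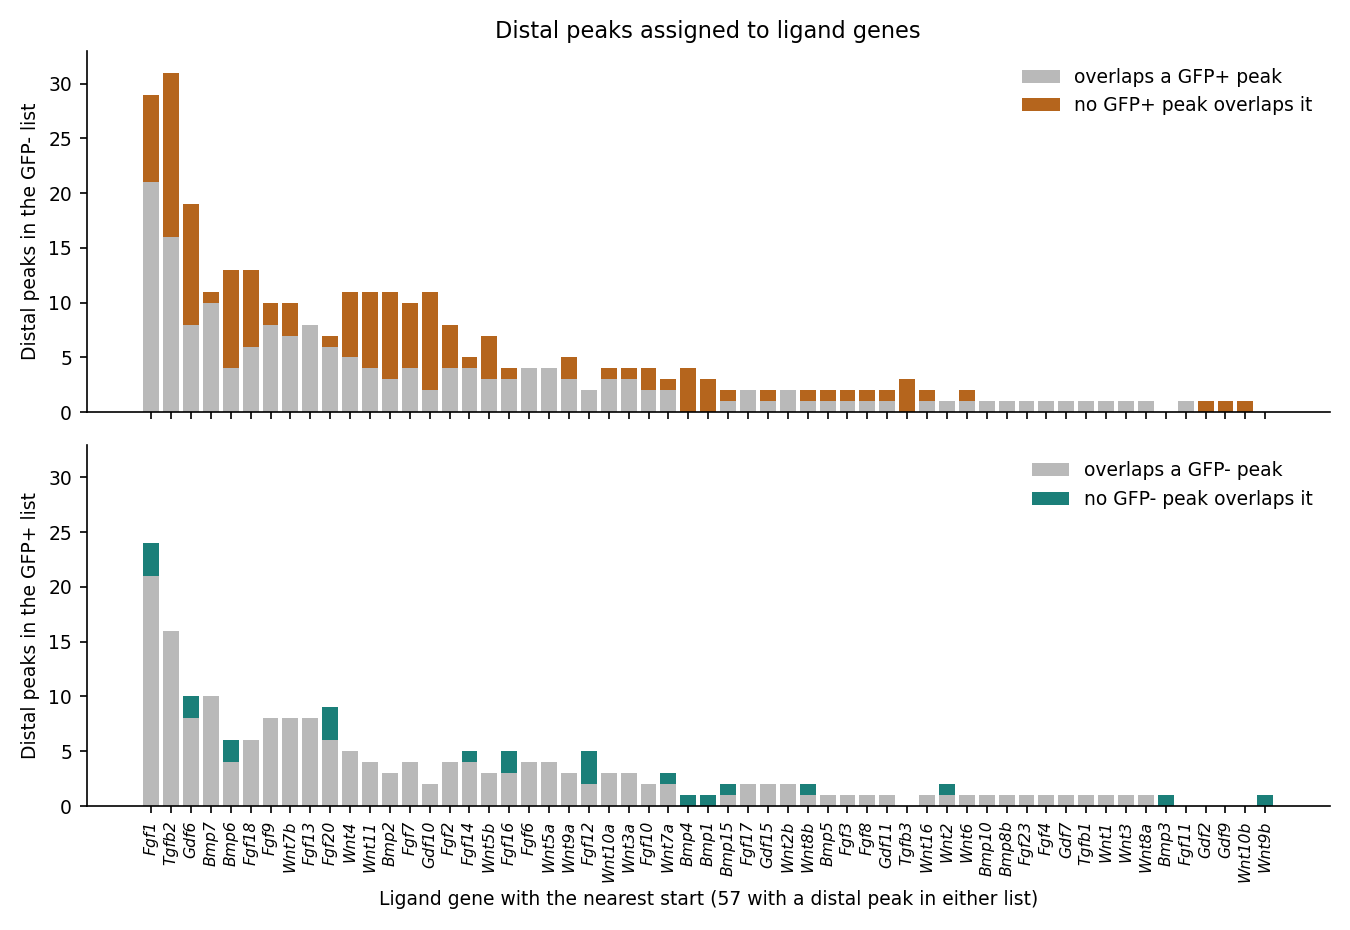
Number of distal peaks (y axis) assigned to each of the 57 ligand genes with one in either list, GFP- above and GFP+ below, split into peaks that overlap a peak of the other list (grey) and peaks that do not (colour). Fgf1 and Tgfb2 stand highest in both panels, and 15 of the 31 GFP- peaks at Tgfb2 have no GFP+ counterpart.

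Fgf1 and Tgfb2 had the most distal peaks. Fgf1 had 29 in GFP- and 24 in GFP+ nuclei, of which 21 were shared in each list, and all lay in introns of Arhgap26, which overlaps Fgf1. Tgfb2 had 31 and 16, and all 16 GFP+ peaks were shared. Gdf6 had 19 and 10, Bmp6 13 and 6, Fgf18 13 and 6, Fgf9 10 and 8, and Wnt7b 10 and 8. Bmp7 had 11 and 10, Fgf13 8 and 8, Fgf20 7 and 9, and Wnt4 11 and 5. Some genes below these had many GFP- peaks without overlap, chosen here after their values were seen. Gdf10 had 11 in GFP-, of which 9 were not shared, Bmp2 11 with 8 not shared, Wnt11 11 with 7 not shared and Fgf7 10 with 6 not shared, and each had 2 to 4 peaks in GFP+. By contrast, 0 of 8 were not shared at Fgf13 and 1 of 11 at Bmp7. Not shared were 132 of 305 GFP- distal peaks over ligand genes and 20163 of 56075 over all genes.

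The highest-ranked distal peaks of ligand genes were shared by both populations. The top of both lists held peaks 28.3 and 52.1 kb upstream of Wnt7b, at ranks 99.1 and 98.9 in GFP- and 96.7 and 98.7 in GFP+. Wnt7b itself had no promoter peak, and its nearest peaks were 465 and 657 bp from a start. The Wnt7b peak 18.1 kb upstream ranked 98.6 and 94.4. The peak 19.1 kb upstream of Wnt11 ranked 98.6 in GFP- and 98.0 in GFP+, beside the fall at the Wnt11 promoter. The other peaks among the first 5 of a list lay 1.1 kb upstream of Fgf1 and Fgf18 and reached into their promoter windows. The Wnt7b and Wnt11 summits are shown because both were among the 3 highest distal ligand peaks of each list. The 200 bases around each summit are given on the plus strand of mm10, at chr15:85634496-85634695 for Wnt7b and chr7:98815885-98816084 for Wnt11. They held 19 and 18 CpG, and none of the 7 words searched.
Wnt7b, 52.1 kb upstream, shared: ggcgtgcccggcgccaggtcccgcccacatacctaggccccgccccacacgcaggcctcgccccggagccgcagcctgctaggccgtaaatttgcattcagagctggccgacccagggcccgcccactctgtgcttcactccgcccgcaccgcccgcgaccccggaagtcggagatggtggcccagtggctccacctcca
Wnt11, 19.1 kb upstream, shared: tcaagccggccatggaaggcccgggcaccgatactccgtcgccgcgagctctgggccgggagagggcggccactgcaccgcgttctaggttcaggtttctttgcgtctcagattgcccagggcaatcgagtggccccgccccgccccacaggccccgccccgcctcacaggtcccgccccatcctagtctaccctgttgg

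The highest of the 132 ligand peaks found only in GFP- nuclei ranked above the highest of the 24 found only in GFP+ nuclei. A larger set is likelier to hold high ranks, and the highest ranks over all genes were not compared. The 6 highest GFP- peaks without overlap lay near Wnt11 (rank 84.4, 50.9 kb upstream), Fgf18 (84.1, 48.1 kb downstream), Fgf1 (81.4, 64.2 kb downstream), Tgfb2 (81.0, 236 kb downstream), Bmp6 (80.8, 54.2 kb upstream) and Gdf10 (79.4, 115 kb upstream). The 6 highest in GFP+ lay near Fgf1 (37.6 and 27.3), Fgf14 (33.2), Wnt2 (27.1), Wnt9b (23.5) and Wnt8b (22.6). The median rank of unshared peaks was 24.5 for 132 GFP- and 14.0 for 24 GFP+ peaks, beside 25.8 and 17.6 over all genes.

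Capitals in the sequences below mark matches, on either strand, to the words TGANTCA (AP-1), CAGCTG (E-box) and GGAATG (TEAD), the ones found here among those searched. The Wnt11 and Fgf18 windows stand for GFP- only peaks and the Fgf14 and Wnt2 windows, both intronic, for GFP+ only peaks, which held no match. Their positions are chr7:98784082-98784281, chr11:33098595-33098794, chr14:124675209-124675408 and chr6:17991530-17991729, all on the plus strand of mm10.
Wnt11, 50.9 kb upstream, GFP- only: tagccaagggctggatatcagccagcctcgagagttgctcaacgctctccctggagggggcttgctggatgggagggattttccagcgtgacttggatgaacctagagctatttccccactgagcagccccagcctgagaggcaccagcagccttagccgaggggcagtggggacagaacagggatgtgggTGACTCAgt
Fgf18, 48.1 kb downstream, GFP- only: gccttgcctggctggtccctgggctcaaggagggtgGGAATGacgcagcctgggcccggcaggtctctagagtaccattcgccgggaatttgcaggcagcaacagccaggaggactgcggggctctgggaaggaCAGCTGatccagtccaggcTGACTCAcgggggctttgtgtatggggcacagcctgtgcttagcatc
Fgf14, 1.8 kb downstream, GFP+ only: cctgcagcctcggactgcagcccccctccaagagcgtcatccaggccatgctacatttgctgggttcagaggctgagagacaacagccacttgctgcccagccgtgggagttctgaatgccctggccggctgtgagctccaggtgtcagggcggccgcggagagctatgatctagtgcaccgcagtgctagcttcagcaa
Wnt2, 39 kb downstream, GFP+ only: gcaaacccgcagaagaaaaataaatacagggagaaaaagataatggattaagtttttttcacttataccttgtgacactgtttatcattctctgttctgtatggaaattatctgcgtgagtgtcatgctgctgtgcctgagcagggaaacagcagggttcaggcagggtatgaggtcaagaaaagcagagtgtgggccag

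Bmp6 held peaks that differed in both directions within its introns, while its promoter ranked alike in both lists. This pair was chosen after its values were seen. A peak 7.8 kb downstream of the nearest Bmp6 start ranked 83.2 in GFP+ and 42.2 in GFP- nuclei, and a peak 16.3 kb downstream of another start ranked 16.6 in GFP+ and 82.2 in GFP-. Another 8 GFP- peaks in Bmp6 introns had no GFP+ counterpart, at ranks from 0.58 to 73.7. The windows lie at chr13:38353828-38354027 and chr13:38410607-38410806 on the plus strand of mm10, and held 1 match each, the first to the TEAD word and the second to the AP-1 word.
Bmp6 intron, 7.8 kb, higher in GFP+: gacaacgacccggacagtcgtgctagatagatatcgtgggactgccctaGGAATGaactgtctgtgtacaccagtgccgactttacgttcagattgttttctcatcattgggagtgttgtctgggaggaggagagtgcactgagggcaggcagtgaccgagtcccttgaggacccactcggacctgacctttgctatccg
Bmp6 intron, 16.3 kb, lower in GFP+: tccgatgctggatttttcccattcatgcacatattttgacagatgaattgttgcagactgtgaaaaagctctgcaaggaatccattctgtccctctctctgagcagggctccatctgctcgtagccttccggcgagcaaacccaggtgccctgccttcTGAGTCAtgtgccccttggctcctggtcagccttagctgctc

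At Tgfb2, peaks 62.7, 39.9 and 22.2 kb downstream of the nearest start ranked 90.4, 81.3 and 70.4 in GFP- and 89.2, 82.5 and 78.0 in GFP+. Peaks of GFP- nuclei alone included an intronic one 8.8 kb downstream at rank 77.5 and others 171, 236 and 250 kb downstream at ranks 79.3, 81.0 and 75.1. At Gdf6, peaks 18.5 and 14.6 kb upstream ranked 78.7 and 61.0 in GFP- and 74.0 and 67.2 in GFP+, unlike its promoter, and a peak 30.6 kb downstream ranked 60.5 in GFP- and 1.6 in GFP+. At Fgf10, the peak 226 kb downstream ranked 83.8 and 57.2, and those 85.6 and 135 kb downstream were in the GFP- list alone, at ranks 69.7 and 57.5. At Fgf7, an intronic peak 4.6 kb downstream ranked 86.3 in GFP- and 73.7 in GFP+ although no GFP+ promoter peak was called.

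**Figure D5:**
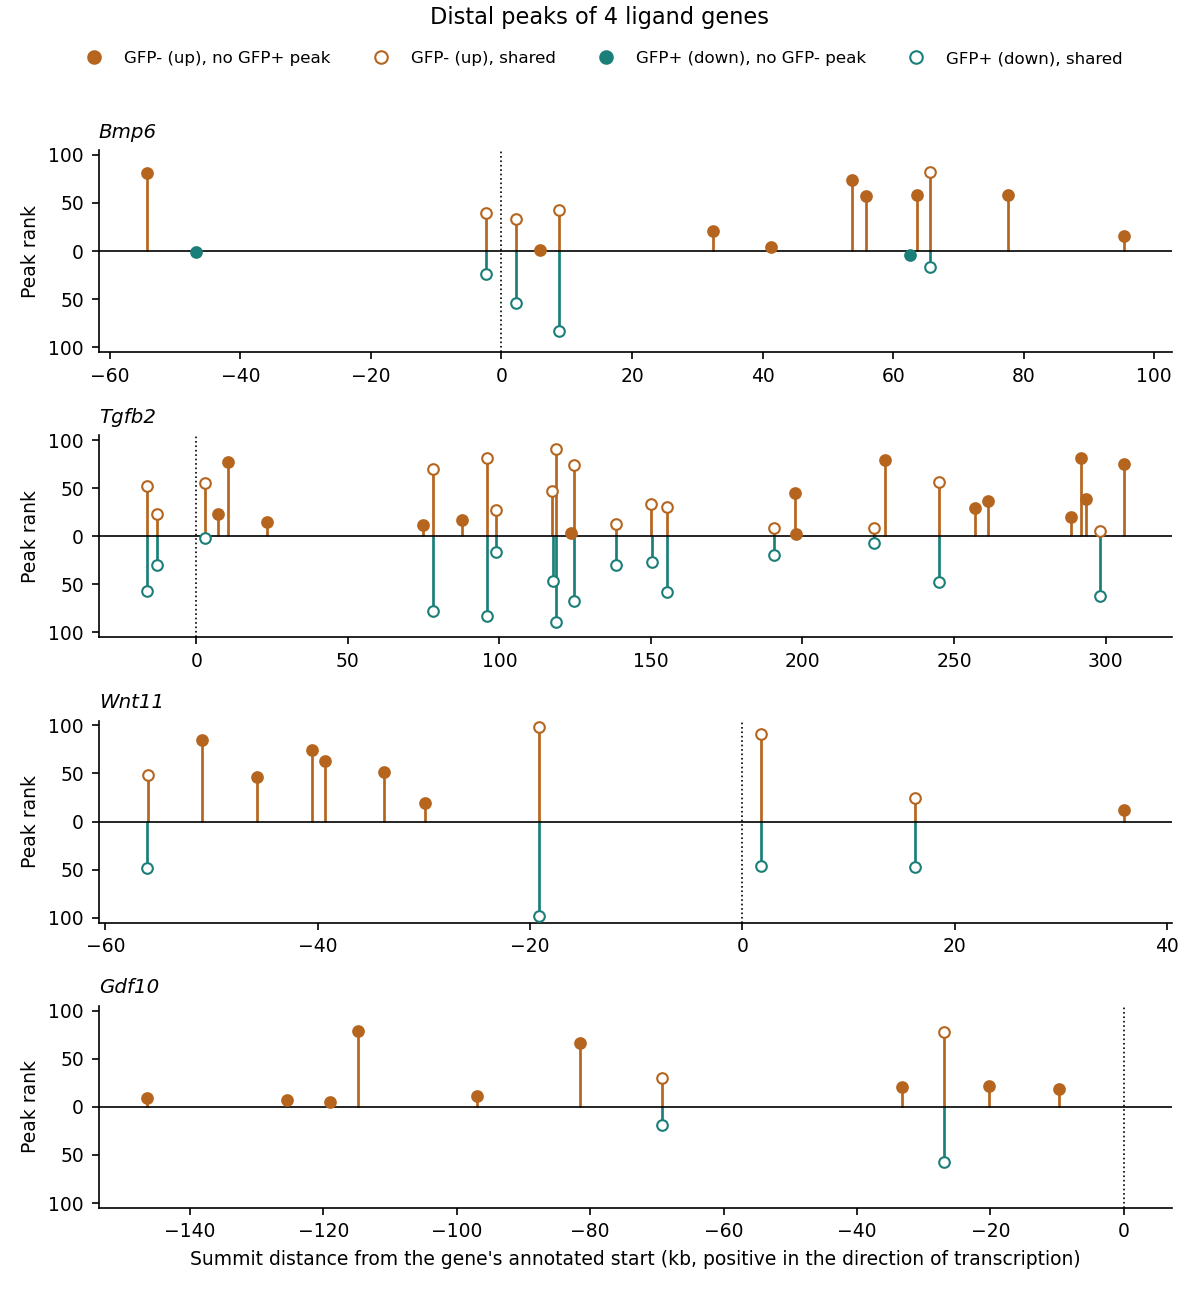
Distal peaks assigned to Bmp6, Tgfb2, Wnt11 and Gdf10 by distance of the summit from the 5′ end of the gene record (x axis, kb, positive in the direction of transcription) and by rank (y axis, GFP- upwards, GFP+ downwards). Open circles are peaks that overlap a peak of the other list and filled circles those that do not. Filled GFP- circles reach rank 84.4 at Wnt11, and the Bmp6 intron has 1 tall peak in each direction.

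The distal windows of ligand genes were also searched for short sequence words. Besides the AP-1, E-box and TEAD words given above, these were CAGGAAG for ETS factors, CCATTGT for SOX factors, AGATAAG for the GATA family and the consensus of MEF2. Each of the 7 was searched on both strands in the 200 bases around each summit, and matches of different words could overlap. The E-box word occurred in 45 of 132 GFP- only windows of ligand genes (34.1%, 26.6 to 42.5%) and in 30 of 173 shared ones (17.3%, 12.4 to 23.7%), beside 29.0% and 21.1% over all protein-coding genes. The AP-1 word occurred in 16.7% and 11.6%, beside 15.2% and 9.7%. The ETS word was in 23 GFP- only windows (17.4%, 11.9 to 24.8%, beside 11.6%) and in 5 of 24 GFP+ only windows (20.8%, 9.2 to 40.5%, beside 23.3%). The TEAD word was in 15.2% of GFP- only windows, beside 16.1%, and in 6 of 24 GFP+ only windows (25%, 12 to 44.9%, beside 12.9%). The SOX, GATA and MEF2 words were in 0.758%, 2.27% and 1.52% of GFP- only windows, beside 2.1%, 3.51% and 3.41%. For GFP+ only windows, the interval of every word held the share of all genes, while for the ETS word in GFP- only windows the share of all genes lay just below the interval. A match is a letter pattern and not a bound site.

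The receptors, inhibitors and targets of the same pathways were mostly open at their promoters in both populations. Of 99 such genes found in the annotation from a list of 100, 83 had a promoter peak in GFP- and 77 in GFP+ nuclei. All protein-coding genes had one in 61.8% and 59.8% of cases. Among the 83, 12 were lower in GFP+ by over 20 points (14.5%, beside 7.33% of all genes) and 0 higher (beside 1.94%), with a median difference of -1.52 beside -0.81. The 6 of 99 with a promoter peak only in GFP-, as 2.95% of all genes had, were Fgfr4 (rank 2.4), Ror2, a Wnt5a receptor (80.5), the secreted Frizzled-related proteins Sfrp2 (31.0) and Sfrp4 (71.2), Dkk3 (3.2) and the latent TGFb binding protein Ltbp2 (62.5). None had one only in GFP+.

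FGF receptors and co-receptors had 5 and 4 of 7, FGF feedback targets 8 and 8 of 8, and WNT secretion genes and receptors 20 and 19 of 24. WNT inhibitors had 10 and 7 of 14, of which 4 were lower by over 20 points, among them Frzb at 52.7 and 3.7 and Sfrp1 at 78.1 and 38.6. WNT feedback targets had 6 of 6 in both lists, 2 of them lower, Lef1 at 52.1 and 27.4 and Sp5 at 70.3 and 47.1. BMP, GDF and TGFb receptors had 13 of 14 in both, 1 of them lower, Acvrl1 (ALK1) at 82.9 and 59.8. Their inhibitors and latency proteins had 13 and 12 of 18, 3 of them lower, Ltbp2, Fst at 66.8 and 24.7 and Chrd at 84.7 and 55.2. The BMP and TGFb feedback targets had 8 of 8 in both, with 0 lower by over 20 points.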

How the data were processed

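ATAC-seq peak lists of GFP+ and GFP- heart nuclei, 1 list per population from 2 libraries each, were analysed. Per the study's methods, the authors used fastp for trimming, bowtie2 for mapping to mm10 and Picard for duplicates, filtered on mapping quality, downsampled each library to one fixed read total and ran Genrich on both replicates together, without chrM, chrY and ENCODE blacklist regions. Mitochondrial reads were left out only at peak calling, and depth after that step is not analysed here. The deposited columns hold a score limited to 1000, a signal (area under the significance curve, minimum 200) and an unadjusted −log10 p-value of the summit. Calling on joined replicates leaves no replicate error, and merging of nearby summits changes area and rank.

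Peaks were ranked by area within each list. Starts, exons and genes were taken from GENCODE M21 (mm10), sequence from RefSeq GRCm38.p6, the same assembly. Promoter peaks touched 250 bp around any start, and the best by rank was kept. Expected CpG was the product of C and G counts over window length. Analyses ran in Python 3.11.15 with pandas 2.3.3, numpy 2.4.6, scipy 1.17.1, pysam 0.24.0 and matplotlib 3.10.9, and peak assignment was tested on simulated data. Intervals are at 95%. No statistical test was possible.

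Named by rule were every member with a promoter peak in only 1 list, the 8 largest rank differences in each direction among members in both, the 10 highest promoter ranks per list, the 10 members with most distal peaks, the 5 highest distal peaks per list and the 6 highest without overlap; other members are given by family. The members and gene lists were chosen with earlier results of these data known. Alternatives were the promoter window, the starts used, the rank measure, the largest peaks alone, the distal limit, exonic summits, the assignment and the overlap.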

Additional observations from a re-analysis of the deposited data

How the results depend on the processing

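Of 70 alternative values of the summary results, 55 were classed with the reported one and 15 as moved. The class was broad, since a median promoter difference of -9.90 was kept in it beside the reported -16.1. The median promoter difference was below 0 in all its alternatives, between -16.4 and -9.90 points, and apart from the limit of 10 points 10 to 15 genes were lower by over 20 points. A limit of 10 points gave 21 lower and 2 higher genes. A window of 100 bp gave 2 genes with a promoter peak only in GFP+ and 3 higher by over 20 points, and a window of 500 bp gave 2 and 0. Genes with a promoter peak only in GFP- numbered 6 when only the gene record's 5′ end was used and 5 with the 40000 largest peaks. Distal peaks numbered 152 (GFP-) and 106 (GFP+) with noncoding genes allowed as nearest, and 118 and 94 among the 40000 largest peaks, of which 63.6% and 79.8% overlapped. An overlap of 50% of both peaks gave 77.8% for GFP+. Without distal peaks that reach into a promoter window, an alternative chosen after the data were seen, 302 and 196 remained. Of 132 values for 20 single genes, 14 in 8 genes had another sign than the reported one. Where the reported difference was over 20 points, these were Fgf11 with a window of 500 bp (-29.9) and by area per bp (-0.62), and Wnt6 by area per bp (7.84). The others were Fgf12 (-21.2 with the gene record's 5′ end, -10.8 by summit p-value, -15.5 by area per bp), Fgf18 (-3.74 by summit p-value, -19.1 by area per bp), Bmp6 (-0.83 and -0.81 likewise), Tgfb1 (-4.04 by area per bp), Bmp7 (9.21 with the 40000 largest peaks, 22.7 by area per bp) and Fgf1 (0.30 with the 40000 largest peaks). The causes were not tested. No paired analysis was possible because each population's list was called from both replicates together, and for the same reason no replicate could be left out. Area carries significance and peak length and gives no counts, so low-ranked peaks, such as that at Fgf6, are close to the limit of calling.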

Other observations

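Ligands of the same superfamilies that the naming rule leaves out were also looked at. Of 14 such genes, Inhba, Inhbb, Inhbe, Lefty1, Artn and Nrtn had promoter peaks in both lists. The activin subunit genes Inhba and Inhbb ranked 85.5 and 89.9 in GFP- and 80.4 and 85.2 in GFP+ nuclei, and Inhbe 71.0 and 74.2. The Nodal inhibitor gene Lefty1 ranked 80.7 in GFP- and 37.1 in GFP+, and Artn, a ligand of the GDNF family, 67.6 and 34.9, while Nrtn ranked 89.9 and 87.9. Inha, which encodes the inhibin alpha subunit, had a promoter peak only in GFP+ nuclei, at rank 91.5. Whether this peak, or those of the other genes named here, also covered the start of a neighbouring gene was not checked. Amh, Gdnf, Inhbc, Lefty2, Mstn, Ndp and Nodal had no promoter peak in either list.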
